A study of Homo sapiens with 16 samples.

Results

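The 10 genes described here are 9 cytosolic heat shock chaperones (HSPA8, HSPA1A, HSPA1B, HSPH1, DNAJB1, DNAJA1, HSP90AA1, HSP90AB1 and HSPB1) and HSF1, the transcription factor of the heat shock response. They were taken by symbol from a table of 58051 gene identifiers, all 10 were found, and all 10 were among the 13765 genes that were tested, those averaging 10 or more over the libraries. The RNA came from P493-6, an established line of human B cells whose MYC transgene is shut down by doxycycline and whose viral transcription factor EBNA2 is switched on by oestrogen. High MYC cells stayed in ordinary DMEM. Medium MYC cells were in DMEM with 0.1 µg/mL doxycycline and 1 µM β-estradiol, added 24 h before treatment. Cells at each MYC level were then kept for 24 h with 100 nM IMP1088 or with DMSO alone, which gives 4 groups of 4 libraries. IMP1088 blocks N-myristoyltransferase (NMT), the enzyme that attaches myristate to the start of many proteins. MYC level, doxycycline and estradiol cannot be told apart in this design. The title of the series asks how NMT inhibition acts at different MYC levels, and the genes serve here as a cytosolic contrast to the chaperones of the endoplasmic reticulum (ER).

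Heat shock chaperones hold, refold or hand over unfolded proteins. HSP70 proteins bind exposed hydrophobic stretches in a cycle driven by ATP; J-domain proteins such as DNAJB1 and DNAJA1 bring clients and start ATP hydrolysis, and HSPH1 releases the ADP. HSP90 proteins act later on kinases and steroid receptors, and HSPB1 is a small heat shock protein that holds clients without ATP. HSF1 is kept inactive by chaperones, and when unfolded proteins draw these away it forms trimers that bind heat shock elements, which are inverted repeats of the unit GAA. Unfolded proteins inside the ER act through other sensors, whose factors bind the ER stress element in genes such as HSPA5 (BiP).

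The promoters show which of these elements the genes carry, so the members' stretches that hold a match outside annotated exons are printed here. They are RefSeq sequences of GRCh38.p14, 5′ to 3′ on the gene's strand, from the 250 bases before a RefSeq transcription start, without bases that GENCODE 29 places in an exon. Capitals mark the heat shock element GAANNTTC, which reads the same on both strands, with its 3-unit forms, in which NNGAA follows it or TTCNN precedes it. In the last sequence, that of the ER chaperone HSPA5 as a contrast, capitals mark the ER stress element, which is CCAAT and CCACG with 9 bases between them, searched on both strands.
HSPA8, chr11:123062336-123062386, minus strand: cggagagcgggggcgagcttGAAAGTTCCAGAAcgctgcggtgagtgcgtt
HSPA1A, chr6:31815293-31815463, plus strand: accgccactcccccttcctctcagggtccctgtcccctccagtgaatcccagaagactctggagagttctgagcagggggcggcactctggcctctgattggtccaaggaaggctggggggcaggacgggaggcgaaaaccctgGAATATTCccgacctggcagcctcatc
HSPA1B, chr6:31827488-31827734, plus strand: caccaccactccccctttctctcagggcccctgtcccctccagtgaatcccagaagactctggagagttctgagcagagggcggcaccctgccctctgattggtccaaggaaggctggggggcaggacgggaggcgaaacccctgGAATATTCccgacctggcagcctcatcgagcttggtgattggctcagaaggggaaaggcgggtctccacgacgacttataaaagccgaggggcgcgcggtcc
HSP90AB1, chr6:44247693-44247865, plus strand: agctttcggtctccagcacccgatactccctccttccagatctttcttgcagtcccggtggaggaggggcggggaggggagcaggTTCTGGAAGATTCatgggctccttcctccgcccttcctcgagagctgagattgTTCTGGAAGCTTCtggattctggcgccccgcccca
DNAJB1, chr19:14518421-14518647, minus strand: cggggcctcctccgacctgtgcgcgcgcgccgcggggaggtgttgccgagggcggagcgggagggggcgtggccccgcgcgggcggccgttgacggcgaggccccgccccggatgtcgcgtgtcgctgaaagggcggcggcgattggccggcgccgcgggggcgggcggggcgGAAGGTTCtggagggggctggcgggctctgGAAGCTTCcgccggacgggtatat
DNAJA1, chr9:33025023-33025210, plus strand: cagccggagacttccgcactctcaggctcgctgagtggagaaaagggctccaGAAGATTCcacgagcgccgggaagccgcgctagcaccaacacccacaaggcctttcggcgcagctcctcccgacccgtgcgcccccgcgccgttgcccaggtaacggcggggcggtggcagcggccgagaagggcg
HSPB1, chr7:76302423-76302543, plus strand: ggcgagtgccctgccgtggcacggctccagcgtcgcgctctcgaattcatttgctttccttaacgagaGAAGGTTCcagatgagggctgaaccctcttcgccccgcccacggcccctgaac
HSPA5, chr9:125241344-125241593, minus strand: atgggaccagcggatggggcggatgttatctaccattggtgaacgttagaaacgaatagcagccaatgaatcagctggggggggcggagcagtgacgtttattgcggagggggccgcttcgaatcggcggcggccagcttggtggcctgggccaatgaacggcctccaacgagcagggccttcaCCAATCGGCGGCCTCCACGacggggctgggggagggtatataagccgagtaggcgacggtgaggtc

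RefSeq windows of 250 bases before to 50 bases after a start were matched for 9 members, all but HSF1, with 14 windows in all. GAANNTTC was found in at least 1 window of 8 of these 9 genes, and HSPH1 had none in its window. Over all 35116 windows of the same length the share with GAANNTTC was 6.77%, and over the members' 14 windows it was 64.3%. A 3-unit form was found in 4 of the 9 genes (HSPA8, HSP90AA1, HSP90AB1 and DNAJA1) and in 0.608% of all genes with a window. By windows, it was in 28.6% of the members' and in 0.49% of all. HSPA8 held 2 such forms, starting 230 and 55 bases before its start, and HSP90AB1 held 2 at its most downstream start, beginning at 165 and 112 bases before it. HSPA1A and HSPA1B carried the 2-unit form in nearly the same place, at 106 and 105 bases before the start. The ER stress element, a motif added after values were seen, was in none of the 9 genes, in 6 of 19 ER chaperone genes and in 0.092% of all genes with a window (0.077% of all windows). These matches are letters in a window and not measured binding.

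**Figure D1:**
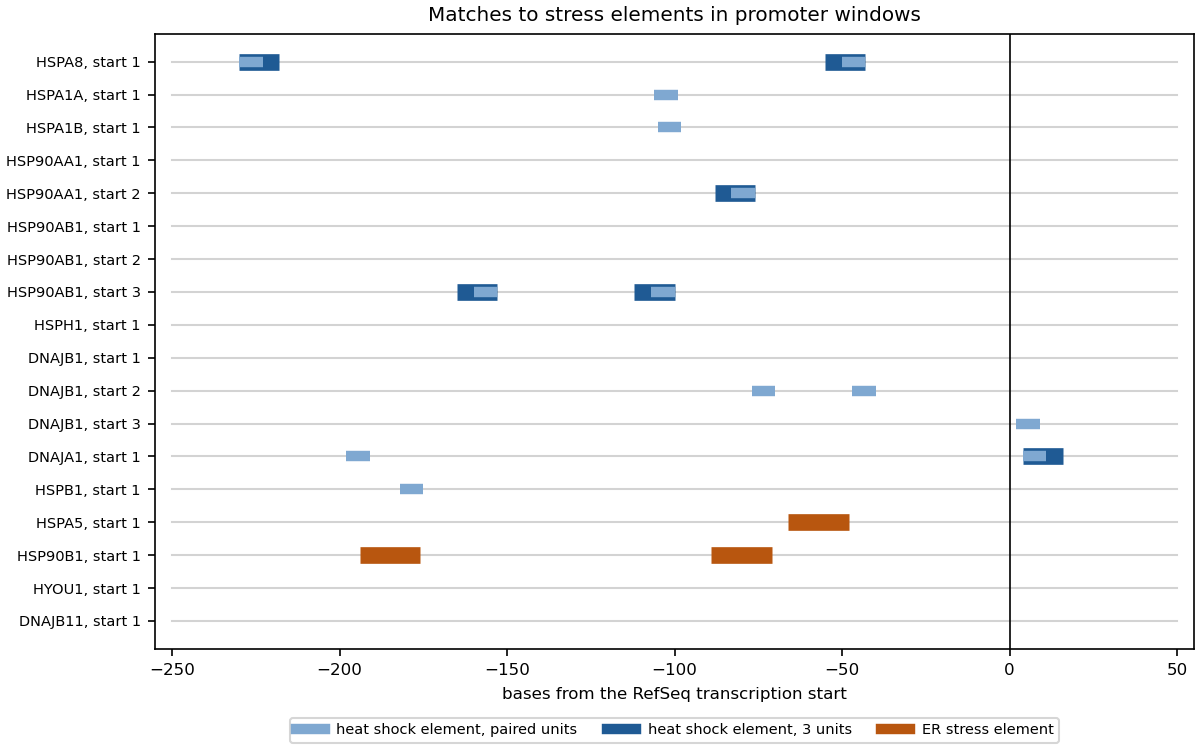
Positions of matches to the heat shock element and the ER stress element in each RefSeq promoter window (x axis: bases from the transcription start; each grey line is a window). Dark and light blue bars lie in windows of 8 of the 9 heat shock genes, and orange bars lie in those of HSPA5 and HSP90B1 and in no window of a member.

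Reads counted to genes numbered 8755296 to 13858534 per library, as recovered from the normalized counts. The members together took 0.458% to 0.631% of a library's values. MYC was lower at medium than at high MYC by 5.04 on the log2 scale (95% confidence interval -5.13 to -4.96), as the labels state, and it rose with the inhibitor by 0.59 at high and 0.53 at medium MYC. All 6 B cell markers were present in every group. Markers of T cells and myeloid cells summed to at most 83.4 normalized counts. Of the erythroid markers HBB was at 0 in all libraries while HBA1 was at 0 at high MYC and at most 11.5 at medium MYC. The plasma cell markers SDC1 and PRDM1 summed to 286 to 330.2 in high MYC controls and 347 to 398 with the inhibitor, and to 204 to 238 and 261 to 311 at medium MYC. Of the epithelial markers KRT18 was at 0, and EPCAM stood at 54.2 to 86.3 at high and 9.39 to 22.8 at medium MYC. The collagen genes COL1A1 and COL1A2 summed to 156 to 221 at medium MYC against at most 19.4 at high MYC. Their part in the results was not tested. The labels do not say that replicates came from separate cultures, so the p-values measure the spread between these libraries, which may be technical. In bulk RNA, fewer cells of a type and less RNA per cell cannot be told apart. All values below are normalized counts, that is, reads divided by a library's size factor. They are relative to the other RNA of a library, so total RNA per cell at each MYC level was not measured. A log2 change is on the scale of log2(value + 1), tested with limma and adjusted by the Benjamini-Hochberg method over all 13765 genes, and a gene was called at an adjusted p under 0.05.

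HSP90AB1, HSPA8 and HSP90AA1 were among the most abundant transcripts of these cells. HSF1, DNAJB1 and HSPA1A were the lowest members per length of exon in high MYC controls. Per kilobase of exon, high MYC controls had 6840 ± 215 (SD, n = 4) of HSP90AB1, the constitutive cytosolic HSP90, 3293 ± 44.0 of HSPA8, the constitutive HSP70, and 3044 ± 65.5 of HSP90AA1, the inducible HSP90. DNAJA1 followed with 1629 ± 55.6, HSPB1 with 795 ± 65.0, HSPH1 with 381 ± 13.6 and HSPA1B with 267 ± 18.7. HSF1 (181 ± 16.02) and DNAJB1 (152 ± 8.63) overlapped between libraries, and HSPA1A was lowest at 20.2 ± 1.75. All the other neighbours in that order were apart in all 4 libraries. At medium MYC the order changed in that DNAJB1 (219 ± 14.4 in controls) stood above HSF1 (157 ± 5.03) without overlap. In both medium MYC groups DNAJB1 overlapped with HSPA1B, while HSPB1 overlapped with DNAJA1 in controls only. With the inhibitor at medium MYC, HSP90AA1 (2382 ± 105) stood just above HSPA8 (2362 ± 80.2), with overlap. By count alone HSP90AB1 ranked 32nd, HSP90AA1 42nd and HSPA8 43rd among the tested genes in high MYC controls, and HSPA1A ranked 10601st. HSF1 ranked 2412th by count, above HSPA1B (3441st) and DNAJB1 (4110th). Its place thus depends on the exon length, which joins all annotated exons of a gene.

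Summed over the 9 chaperones, high MYC controls had 62545 ± 1124 normalized counts (SD, n = 4), and 60801 ± 790 with the inhibitor. At medium MYC the sum was 51154 ± 916 in controls and 46423 ± 799 with the inhibitor. As a share of all values this was 0.592% to 0.622%, 0.584% to 0.600%, 0.488% to 0.501% and 0.451% to 0.464% in the order given, so the medium MYC groups lay below the high MYC groups in every library. No test was made of these sums, which 3 genes (HSP90AB1, HSPA8 and HSP90AA1) dominate.

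With the inhibitor, the members moved little and in both directions at high MYC and mostly down at medium MYC. At high MYC, 2 of 10 were called higher (HSP90AB1 and HSPA1B) and 4 lower (HSPA8, HSP90AA1, HSPB1 and HSF1), where 26.8% of all tested genes were called (10.5% higher and 16.3% lower). At medium MYC, 1 was called higher (HSP90AB1) and 7 lower, where 26.3% of all genes were called (11.7% higher and 14.6% lower). By overlap of the libraries, 5 members at high MYC and 8 at medium MYC had inhibitor and control values apart. At high MYC 2 of these were higher and 3 lower, where 26.7% of all genes were apart (10.9% higher and 15.8% lower), and at medium MYC 1 was higher and 7 lower, where 27.9% of all genes were apart (12.4% higher and 15.4% lower). The members' median log2 change was -0.01 at high and -0.14 at medium MYC, beside -0.02 and -0.01 over all tested genes. No member changed by more than 0.45 on the log2 scale in either comparison. The difference between the responses was called for 3 of 10 members (HSPA1B, HSPH1 and DNAJB1, each higher at high than at medium MYC), where 8.63% of all genes were called (3.31% higher and 5.33% lower). The largest of these differences was 0.35. As a limit, the inhibitor was given for a single time and dose, and no heat-shocked culture is among the libraries.

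**Figure D2:**
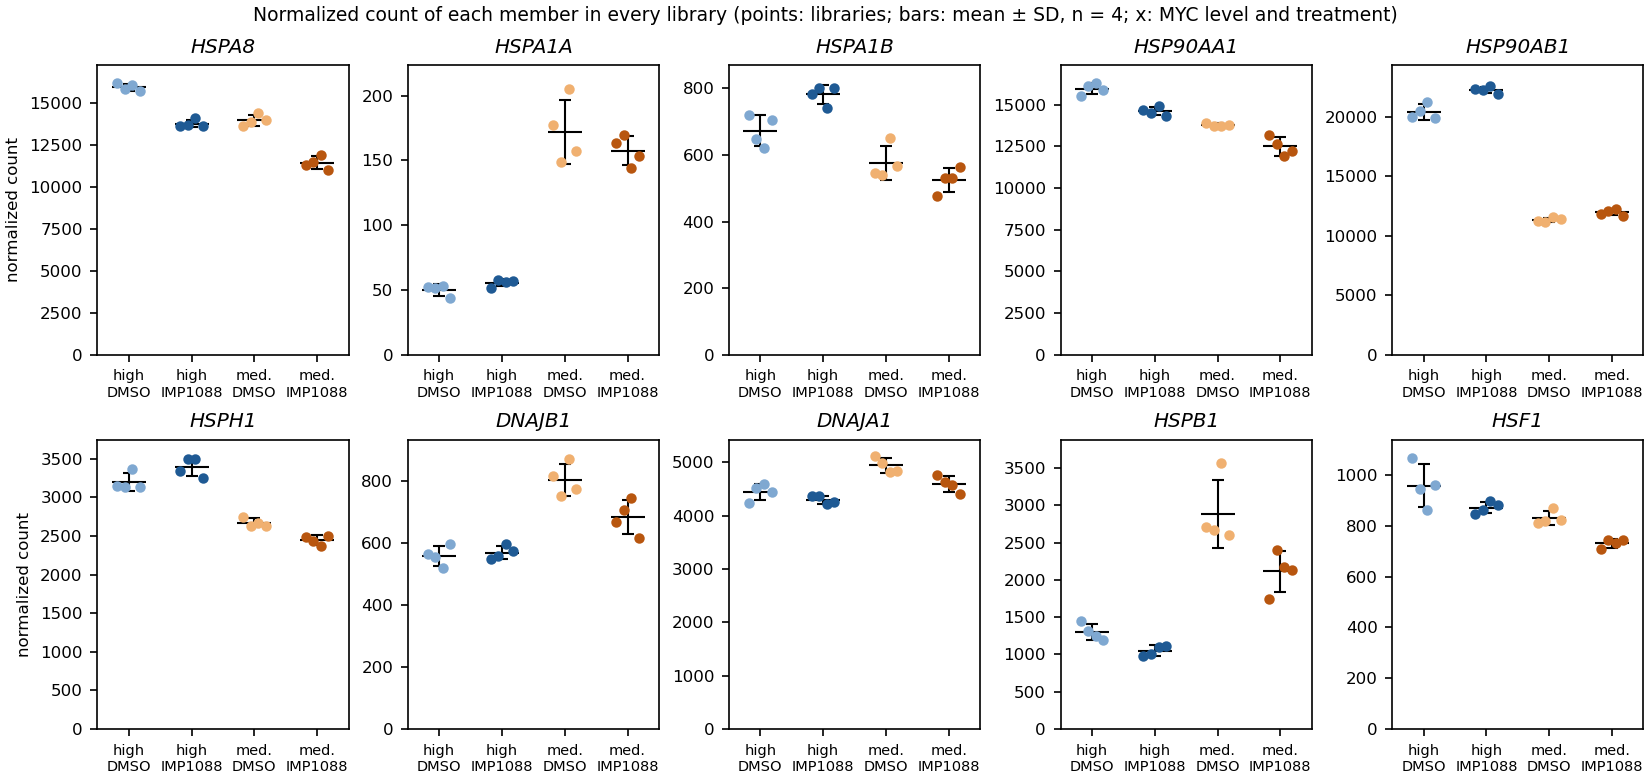
Normalized count of each of the 10 genes in every library (points), with the mean and SD of 4 libraries (bars), by MYC level and treatment; each y axis starts at 0. HSPA8 steps down with the inhibitor at both MYC levels, HSP90AB1 separates the MYC levels, and HSPA1A and HSPB1 are higher at medium MYC.

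HSPA8 (ENSG00000109971, chromosome 11, 123057489 to 123063230 on GRCh38), the HSP70 made in all cells, fell with the inhibitor at both MYC levels. In high MYC controls its normalized counts were 16188, 15879, 16086 and 15711, and with the inhibitor they were 13675, 13722, 14114 and 13639. At medium MYC the controls had 13656, 13908, 14436 and 13975 and the inhibitor libraries 11338, 11521, 11939 and 11006. Every inhibitor library lay below every control of its MYC level. It fell by 13.6% at high MYC (log2 change -0.21, SE 0.03, limma adjusted p 3.10e-06) and fell by 18.2% at medium MYC (log2 change -0.29, SE 0.03, adjusted p 3.15e-08). High and medium MYC responses differed by 0.08 (95% confidence interval 0.00 to 0.16, adjusted p 0.234), a difference that was not called. Its exons hold the snoRNA genes SNORD14C and SNORD14D, listed at 0 in all groups, and 17 annotated pseudogenes could take or give reads.

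HSPA1A and HSPA1B, neighbouring single-exon genes on chromosome 6 (ENSG00000204389, 31815464 to 31817946, and ENSG00000204388, 31827735 to 31830255), encode the heat-inducible HSP70. Of their 50-base transcript stretches, 72.6% of HSPA1A's and 71.4% of HSPA1B's occur in the other gene, and the 250 bases before their starts were identical at 235 positions, 93.6% of the alignment, so the split of reads between them is uncertain. HSPA1B had 721, 648, 620.3 and 704 normalized counts in high MYC controls and 784, 802, 740.0 and 802 with the inhibitor. The inhibitor group was higher without overlap (log2 change 0.22, SE 0.06, limma adjusted p 0.0122). At medium MYC, HSPA1B had 544, 540.2, 652 and 568 in controls and 478, 530.5, 531 and 563 with the inhibitor, and the groups overlapped (log2 change -0.13, SE 0.06, adjusted p 0.132). Between the MYC levels the responses differed by 0.35 (SE 0.09, adjusted p 0.0136).

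HSPA1A was low everywhere. It had 52.0, 51.7, 53.0 and 43.6 in high MYC controls and 51.6, 57.7, 55.9 and 57.2 with the inhibitor (log2 change 0.15, SE 0.11, limma adjusted p 0.332). At medium MYC it had 177, 149, 205 and 158 in controls and 163, 170, 144 and 153 with the inhibitor (log2 change -0.12, SE 0.11, adjusted p 0.466). Treatment groups overlapped at both levels, while every medium MYC library lay above every high MYC library. Because the copies cannot be separated with certainty, their values were also summed. High MYC controls had a sum of 723 ± 45.1 (SD, n = 4), the high MYC inhibitor libraries 838 ± 30.1, and the sum rose by 0.21 on the log2 scale (adjusted p 0.00970). At medium MYC it was 748 ± 74.1 and 683 ± 32.8 (log2 change -0.13, adjusted p 0.120), and without medium MYC control 3 the change was -0.06 (adjusted p 0.439). For the sum, the responses differed by 0.34 (adjusted p 0.0109), which lay between 0.27 and 0.38 in the 16 fits that left out 1 library each.

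**Figure D3:**
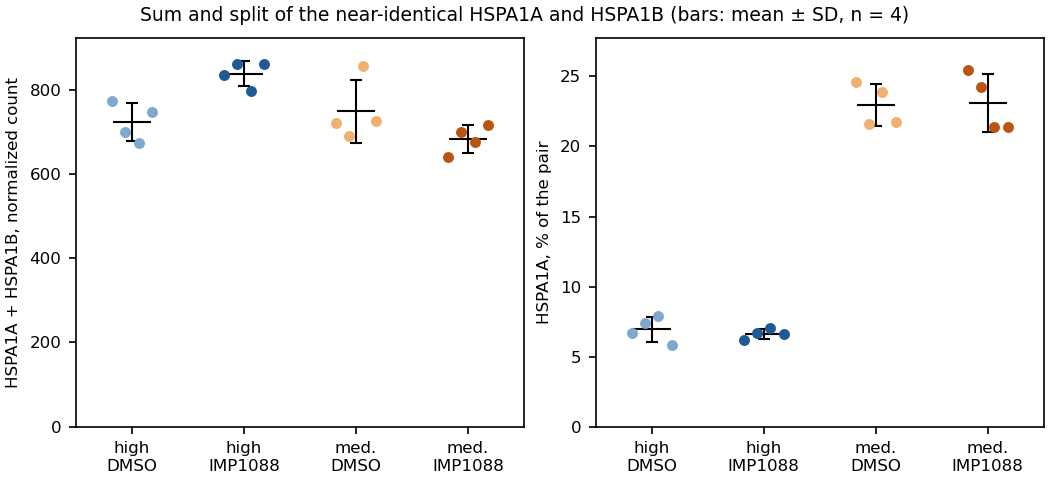
Sum of HSPA1A and HSPA1B (left, normalized count) and the share of the sum assigned to HSPA1A (right, %), per library, with mean and SD of 4. The mean sum is highest in the high MYC inhibitor group (838), and the HSPA1A share is 5.83% to 7.87% in high MYC controls and 21.6% to 24.6% in medium MYC controls.

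HSPH1 (ENSG00000120694, chromosome 13, 31134974 to 31162388), the HSP110 that resets HSP70 by nucleotide exchange, fell with the inhibitor at medium MYC, and its response differed between the MYC levels. At high MYC the controls had 3149, 3128, 3365 and 3137 and the inhibitor libraries 3344, 3491, 3491 and 3244. Control 3 stood above 2 of the inhibitor libraries, and the change of 0.09 (SE 0.03, limma adjusted p 0.0507) was not called. At medium MYC the controls had 2751, 2633, 2669 and 2625 and the inhibitor libraries 2486, 2429, 2368 and 2505, all below the controls, and HSPH1 fell by 8.35% (log2 change -0.13, SE 0.03, adjusted p 0.00534). The responses differed by 0.21 (SE 0.05, adjusted p 0.00391). The call at high MYC was gained in 9 of 22 other fits, among them those without control 3 (adjusted p 0.0129) and without inhibitor library 4 (adjusted p 0.0226).

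DNAJB1 (ENSG00000132002, chromosome 19, 14514770 to 14529770), the inducible J-protein that works with HSP70 and holds HSF1 in check, fell with the inhibitor at medium MYC. There it had 816, 752, 872 and 774 in controls and 666, 706, 745 and 617 with the inhibitor, with no overlap, and it fell by 14.9% (log2 change -0.23, SE 0.06, limma adjusted p 0.00437). At high MYC its counts were 563, 554, 519 and 596 in controls and 548, 558, 598 and 573 with the inhibitor, which overlapped (log2 change 0.03, SE 0.06, adjusted p 0.754). The difference between the responses was 0.26 (SE 0.08) at an adjusted p of 0.04999. That call was lost in 20 of 29 other fits, in which the adjusted p reached 0.110, and in 13 of the 16 that left out 1 library each. Its exons overlap those of TECR on the opposite strand over 5.75% of their length, and TECR had 645 normalized counts in high MYC controls and 477 in medium MYC controls.

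DNAJA1 (ENSG00000086061, chromosome 9, 33025211 to 33039907), a constitutive J-protein of the cytosol, fell by 7.07% at medium MYC, from 5123, 4992, 4817 and 4827 in controls to 4758, 4623, 4573 and 4407 with the inhibitor (log2 change -0.11, SE 0.03, limma adjusted p 0.0129). The lowest control (4817) lay just above the highest inhibitor library (4758). At high MYC the controls had 4243, 4514, 4598 and 4434 and the inhibitor libraries 4362, 4360.2, 4212 and 4253, which overlapped (log2 change -0.05, SE 0.03, adjusted p 0.260). The responses differed by 0.06 (95% confidence interval -0.03 to 0.15). The call at medium MYC was lost with equal library totals (-0.08, adjusted p 0.104) or quantile normalization (-0.08, adjusted p 0.0746), and without control 1 (adjusted p 0.0523) or inhibitor library 4 (adjusted p 0.0574).

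The cytosolic HSP90 genes moved in opposite directions with the inhibitor. HSP90AA1 (ENSG00000080824, chromosome 14, 102080738 to 102139699), the inducible form, had 15533, 16140.4, 16328 and 15892 in high MYC controls and 14708, 14525, 14958 and 14352 with the inhibitor. At medium MYC it had 13919, 13701, 13737 and 13815 in controls and 13214, 12629, 11951 and 12214 with the inhibitor. The inhibitor libraries were lower without overlap at both levels. HSP90AA1 fell by 8.37% at high MYC (log2 change -0.13, SE 0.03, limma adjusted p 0.00187) and fell by 9.42% at medium MYC (log2 change -0.14, SE 0.03, adjusted p 5.59e-04). These responses differed by 0.02 (95% confidence interval -0.07 to 0.10). WDR20 on the opposite strand shares 3.75% of its exon length.

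HSP90AB1 (ENSG00000096384, chromosome 6, 44246166 to 44253888), the constitutive form and the most abundant member per length in all groups, rose with the inhibitor. High MYC controls had 19932, 20493, 21249 and 19863, and the inhibitor libraries had 22274, 22188, 22576 and 21888 (9.10% higher, log2 change 0.13, SE 0.03, limma adjusted p 8.49e-04). At medium MYC the counts were 11187, 11169, 11554 and 11371 in controls and 11811, 12097, 12238 and 11671 with the inhibitor (5.59% higher, log2 change 0.08, SE 0.03, adjusted p 0.0272). The inhibitor libraries lay above the controls without overlap at both levels, and the difference between the responses was 0.05 (95% confidence interval -0.03 to 0.12). The call at medium MYC was lost in 7 of 22 other fits, in which the change stayed at 0.07 or above and the adjusted p reached 0.0865, among them those without control 1 or 2 or inhibitor library 2 or 3.

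HSPB1 (ENSG00000106211, chromosome 7, 76302544 to 76304295), the small heat shock protein HSP27, had the largest fall of the members. At high MYC it went from 1444, 1307, 1246 and 1199 in controls to 974, 1006, 1102 and 1117 with the inhibitor, and at medium MYC from 2709, 2663, 3567 and 2605 to 1748, 2399, 2169 and 2131. The inhibitor libraries lay below the controls without overlap at both levels. HSPB1 fell by 19.1% at high MYC (log2 change -0.31, SE 0.09, limma adjusted p 0.0154) and fell by 26.7% at medium MYC (log2 change -0.45, SE 0.09, adjusted p 7.24e-04). Its responses differed by 0.14 (95% confidence interval -0.13 to 0.41). Medium MYC control 3 stood far above the other 3, and without it the fall there was -0.34 (adjusted p 0.00189). The call at high MYC was lost with no mean trend (adjusted p 0.0567), without control 1 (adjusted p 0.0570) and without inhibitor library 1 (adjusted p 0.0535). HSPB1 has a GC content of 64.3%, higher than 96.0% of tested genes. Over all 22 other fits its change ran from -0.34 to -0.22 at high MYC and from -0.51 to -0.34 at medium MYC.

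HSF1 (ENSG00000185122, chromosome 8, 144291591 to 144314722) mRNA was somewhat lower with the inhibitor. At high MYC it had 1068, 946, 861 and 960.0 in controls and 848, 863, 896 and 881 with the inhibitor, and control 3 lay below 3 of the inhibitor libraries (log2 change -0.13, SE 0.05, limma adjusted p 0.0498). At medium MYC the controls had 812, 820.2, 871 and 823 and the inhibitor libraries 707, 745, 731 and 743, without overlap (log2 change -0.18, SE 0.05, adjusted p 0.00705). Its responses differed by 0.05 (95% confidence interval -0.09 to 0.20). The call at high MYC was lost in 17 of 22 other fits, and on leaving out any library but control 3 the adjusted p was 0.0563 to 0.212. HSF1 has a GC content of 64.7%, higher than 96.6% of tested genes, and with a correction for GC content the changes were -0.05 (adjusted p 0.381) at high and -0.07 (adjusted p 0.126) at medium MYC. HSF1 is regulated largely at the protein level, which these libraries do not measure.

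Among controls, the members split between medium and high MYC. All 10 were called, 4 higher and 6 lower at medium MYC, where 76.2% of all tested genes were called (38.9% higher and 37.3% lower). In 8 of the 10 the control groups did not overlap, 4 higher and 4 lower, where 69.2% of all genes did not (35.6% higher and 33.6% lower). HSPA1A (log2 change 1.76, SE 0.11, limma adjusted p 2.11e-12), HSPB1 (1.14, SE 0.09, adjusted p 1.78e-10), DNAJB1 (0.52, SE 0.06, adjusted p 4.09e-08) and DNAJA1 (0.15, SE 0.03, adjusted p 1.33e-04) were higher at medium MYC, each without overlap. HSP90AB1 differed by -44.4% (log2 change -0.85, SE 0.03, adjusted p 8.27e-18), also without overlap, and its high MYC controls had 19863 to 21249 where medium MYC controls had 11169 to 11554. With quantile normalization its change was -0.54 (adjusted p 3.01e-13). HSPH1 was lower as well (log2 change -0.26, adjusted p 2.34e-07). HSPA8 (-0.19, adjusted p 1.16e-06) and HSP90AA1 (-0.21, adjusted p 6.47e-07) were lower without overlap, but with quantile normalization both changes turned to 0.03 (adjusted p 0.185 and 0.413). HSPA1B (-0.23, adjusted p 0.00255) and HSF1 (-0.20, adjusted p 8.26e-04) were lower with overlap between the groups, and with the GC correction HSF1 stood at -0.10 (adjusted p 0.0101). This comparison shares its control libraries with both inhibitor comparisons.

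HSPA1A was higher and HSPA1B lower at medium MYC, while their sum differed little and the split of reads between the copies moved. HSPA1A held 6.95% ± 0.883 (SD, n = 4) of the pair's reads in high MYC controls and 23.0% ± 1.51 in medium MYC controls (two-sided exact permutation test p = 0.0286, the smallest that 4 against 4 libraries allow; 0.0857 adjusted over 3 tests). The inhibitor moved the share by -0.313 points at high MYC and 0.169 points at medium MYC (exact permutation p = 0.486 and 0.886). The sum of the copies differed between the controls by 0.05 on the log2 scale (limma adjusted p 0.487), and without medium MYC control 3 by -0.02 (adjusted p 0.719). HSPA1B also shares 36.5% of its exon length with the annotated transcript AL671762.1 on the same strand. Whether the counting step or the RNA set the share was not tested.

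The ER chaperones, the cytosolic genes' counterparts in that compartment, responded in another way. At medium MYC, HSPA5, the HSP70 of the ER, rose with the inhibitor from 2891, 3058, 2922 and 3081 to 7245, 7231, 7386 and 7115, which was 2.42-fold (log2 change 1.28, SE 0.03, limma adjusted p 3.32e-18), while HSPA8 fell. HSP90B1, the HSP90 of the ER, rose by 0.51 (adjusted p 3.28e-11), HYOU1, the HSP110 of the ER, by 0.76 (adjusted p 1.30e-13) and DNAJB11, a J-protein of the ER, by 0.68 (adjusted p 6.28e-10). At high MYC, HSPA5 changed by 0.04 (adjusted p 0.339) and HSP90B1 by 0.03 (adjusted p 0.497), and neither was called. HYOU1 rose there by 0.10 (adjusted p 0.0208) and DNAJB11 by 0.17 (adjusted p 0.0104). The call of HYOU1 at high MYC was lost without control 4 (adjusted p 0.0598) and without inhibitor library 2 (0.0545) or 4 (0.0549), and that of DNAJB11 with the GC correction (0.12, adjusted p 0.157).

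**Figure D4:**
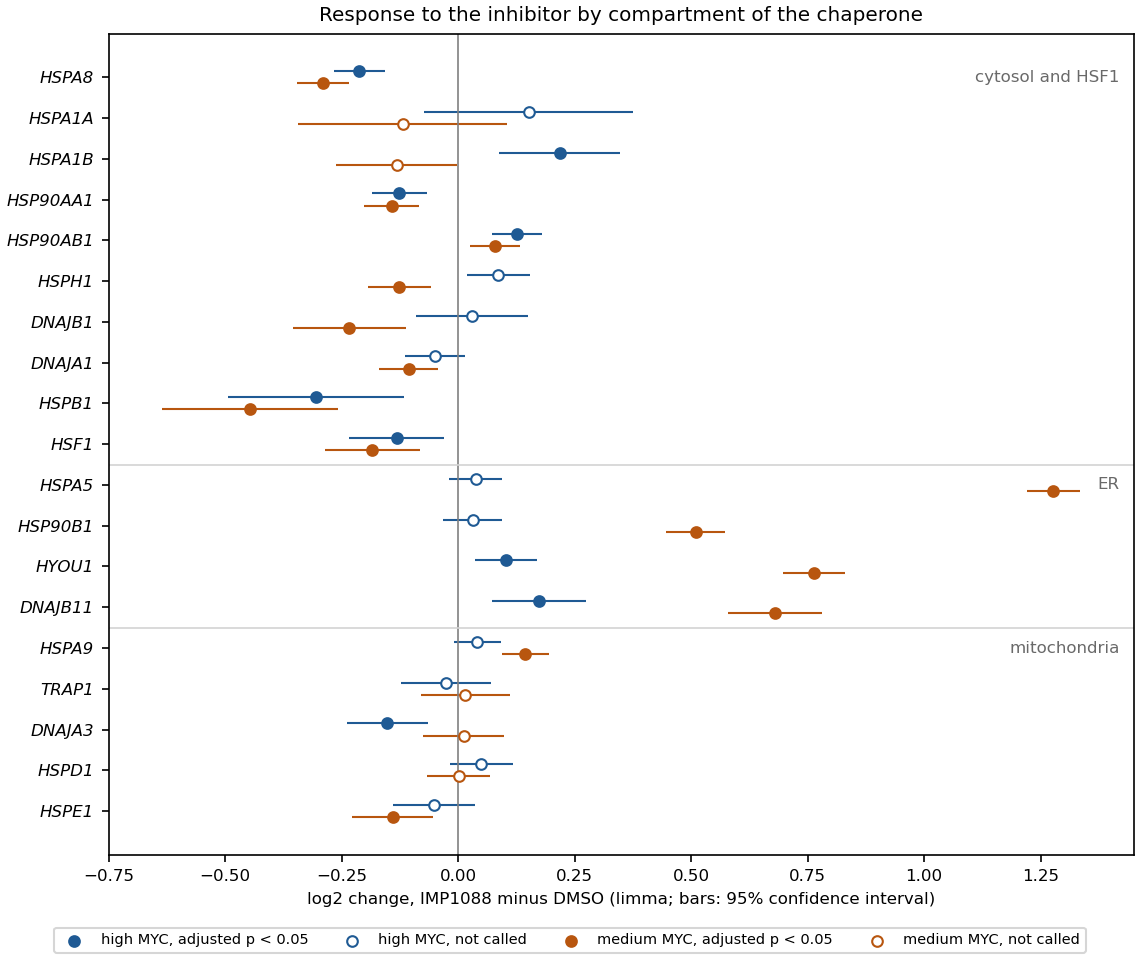
Log2 change with the inhibitor (x axis; bars: 95% confidence interval) for the 10 members and their counterparts in the ER and mitochondria, at high MYC (blue) and medium MYC (orange); filled points were called. The cytosolic genes lie between -0.45 and 0.22, and the ER chaperones at medium MYC lie between 0.51 and 1.28.

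The ratio of a cytosolic chaperone to its counterpart, taken within each library, describes the difference between their responses. The log2 ratio of HSPA8 to HSPA5 was 2.23 ± 0.0577 (SD, n = 4) in medium MYC controls and 0.66 ± 0.0280 with the inhibitor, a change of -1.57, against a change of -0.25 at high MYC. HSP90AA1 to HSP90B1 changed by -0.65 at medium and -0.16 at high MYC. In these 4 comparisons the libraries did not overlap, and each gave an exact permutation p = 0.0286 (0.0400 adjusted over 14 ratio tests). HSPH1 to HYOU1 changed by -0.89 at medium MYC (exact permutation p = 0.0286) and by -0.02 at high MYC (exact permutation p = 0.771). DNAJB1 to DNAJB11 changed by -0.91 at medium MYC (exact permutation p = 0.0286) and by -0.14 at high MYC (exact permutation p = 0.143). These pairs were chosen after their values had been seen, so the p-values of the ratios are descriptive and add no independent evidence of the contrast. HSP90AB1, the cytosolic HSP90 that rose with the inhibitor, was not paired. It changed by 0.13 at high and 0.08 at medium MYC, where HSP90B1 changed by 0.03 and 0.51. The HSP90 ratios given thus hold for HSP90AA1 only.

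The mitochondrial counterparts HSPA9, TRAP1, DNAJA3, HSPD1 and HSPE1 changed with the inhibitor by -0.15 to 0.05 at high MYC and by -0.14 to 0.14 at medium MYC. HSPA9, the mitochondrial HSP70, rose by 0.14 at medium MYC (limma adjusted p 1.05e-04), and the ratio of HSPA8 to HSPA9 changed by -0.43 there and by -0.25 at high MYC (each exact permutation p = 0.0286). HSPE1, which was not paired, fell at medium MYC (-0.14, limma adjusted p 0.0160), a call lost in 2 of 22 other fits. HSP90AA1 to TRAP1, the mitochondrial HSP90, changed by -0.10 at high MYC (exact permutation p = 0.0286) and by -0.16 at medium MYC (exact permutation p = 0.143). HSP90AB1 was not paired with TRAP1. It rose by 0.13 at high and 0.08 at medium MYC, where TRAP1 changed by -0.03 and 0.02. DNAJA1 to DNAJA3 changed by 0.10 at high MYC (exact permutation p = 0.0286) and by -0.12 at medium MYC (exact permutation p = 0.0857). DNAJA3 itself fell at high MYC (-0.15, limma adjusted p 0.00921), a call lost in 1 of 22 other fits, while DNAJA1 was not called there. The mitochondrial pairs too were chosen after their values had been seen, so their p-values are descriptive as well. An exact permutation p of 0.0286, the smallest that 4 against 4 libraries allow, became 0.0400 when adjusted over the 14 ratio tests. TRAP1 and the chaperonins HSPD1 and HSPE1 stood far lower in medium than in high MYC controls, by 2.26, 1.58 and 1.27 on the log2 scale, which is a larger difference than that of any cytosolic member that was lower.

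Partners and regulators of the members were looked up from lists of other genes. The lists share genes, so a gene can count in more than 1 of them. Of 25 tested HSP70 partners (of 27 listed), 4 were called higher and 2 lower at high MYC and 3 and 2 at medium MYC, with medians of 0.05 and 0.02, where 26.8% and 26.3% of all tested genes were called. The count of 5 at medium MYC was 2 or 3 without control 1, 2 or 4 or inhibitor library 2, 3 or 4. BAG5, a nucleotide exchange factor of HSP70, rose at high MYC (0.23, limma adjusted p 6.62e-05), and its responses differed by 0.18 (adjusted p 0.0391), a call lost in 15 of 29 other fits, of which 10 left out 1 library. BAG1, which releases nucleotide from HSP70, rose at both levels (0.17, limma adjusted p 0.00620, and 0.27, adjusted p 9.96e-05), as did DNAJB2 (0.38, adjusted p 3.28e-04, and 0.21, adjusted p 0.0267). The call of DNAJB2 at medium MYC was lost in 6 of 22 other fits, among them those without control 1 or 4 or inhibitor library 2 or 3. HSPA6, a strictly heat-inducible HSP70, averaged only 23.9 normalized counts over the libraries. It fell at high MYC (-0.60, limma adjusted p 0.0395), a call lost in 11 of 21 other fits, among them those without control 1, 3 or 4 or inhibitor library 1 or 2. Of 18 genes listed as HSP90 partners, among them the processed pseudogene HSP90AB4P, which was not called with the inhibitor, 1 was higher and 1 lower at high MYC (1 in all without control 1, 2 or 4, and 0 without inhibitor library 2 or 4). At medium MYC 2 were lower, namely STIP1, which links HSP70 to HSP90 (-0.18, adjusted p 0.00178), and FKBP5, an immunophilin induced by steroid receptors (-0.14, adjusted p 0.00249). FKBP5 rose at high MYC (0.10, adjusted p 0.0252), a call lost in 7 of 22 other fits, among them those without control 1 or 4 or inhibitor library 2 or 4 (adjusted p up to 0.0911). Its responses differed by 0.24 (adjusted p 0.00145).

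Heat-inducible HSF1 targets other than the members did not move one way. Many of them are also in the lists of partners or of mitochondrial chaperones, such as HSPA6, STIP1, FKBP4, HSPD1 and HSPE1, so their counts are not independent. Of 21 tested (of 25 listed), 3 were higher and 1 lower at high MYC, and 4 were higher and 6 lower at medium MYC, with medians of 0.02 and -0.04 beside -0.02 and -0.01 over all genes, of which 26.8% and 26.3% were called. The count of 10 at medium MYC was 5 or 6 without control 1 or 4 or inhibitor library 2, 3 or 4. UBB, a polyubiquitin gene, rose at both levels (0.16, limma adjusted p 7.15e-04, and 0.18, adjusted p 1.68e-04). CACYBP (-0.25, adjusted p 6.19e-05) and STIP1 fell at medium MYC. In the difference of responses none of the 21 was called by limma, while other fits called up to 3. Of 8 tested genes of the HSF family and its regulators, EEF1A1, a translation factor that takes part in HSF1 activation, rose at both levels (0.13, limma adjusted p 0.00134, and 0.30, adjusted p 3.47e-08). HSF4, which averaged only 16.6 normalized counts over the libraries, fell at medium MYC (-0.74, limma adjusted p 0.0292). With quantile normalization EEF1A1 changed by 0.05 (adjusted p 0.531) and 0.12 (adjusted p 0.0544), and the call of HSF4 was lost in 6 of 21 other fits, among them those without control 3 or 4 or inhibitor library 1. Of 8 other genes listed as small heat shock proteins only HSPB11 was expressed enough to test. Its current symbol, IFT25, does not name it a heat shock protein. It fell at high MYC (-0.41, limma adjusted p 5.58e-04) and says nothing about small heat shock proteins.

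By contrast, of 20 ER chaperones 4 were higher and 4 lower at high MYC, while 19 were higher and 0 lower at medium MYC (median 0.59), and 18 of 20 differed between the responses. Of 7 mitochondrial chaperones, 1 was lower at high MYC, and 2 were higher and 1 lower at medium MYC. Of all tested genes, 26.8% were called at high MYC, 26.3% at medium MYC and 8.63% for the difference between the responses. Among controls, where 38.9% of all genes were called higher and 37.3% lower, 13 of the 18 HSP90 partners were lower at medium MYC and 1 higher, with FKBP4 at -1.49 (limma adjusted p 5.58e-19) and AHSA1, which speeds up the HSP90 ATPase, at -0.72 (adjusted p 2.25e-12). The HSP70 partners divided into 11 higher and 12 lower, from BAG1 at -1.58 (adjusted p 2.89e-18) to DNAJB5 at 2.82. The heat-inducible targets divided into 7 higher and 13 lower, and all 7 mitochondrial chaperones were lower. FKBP4 and AHSA1 count both as HSP90 partners and as targets, and HSPD1 and HSPE1 both as targets and as mitochondrial chaperones. Of those lists, the median of the HSP90 partners was -0.37 and that of the members -0.20, beside 0.02 over all genes.

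**Figure D5:**
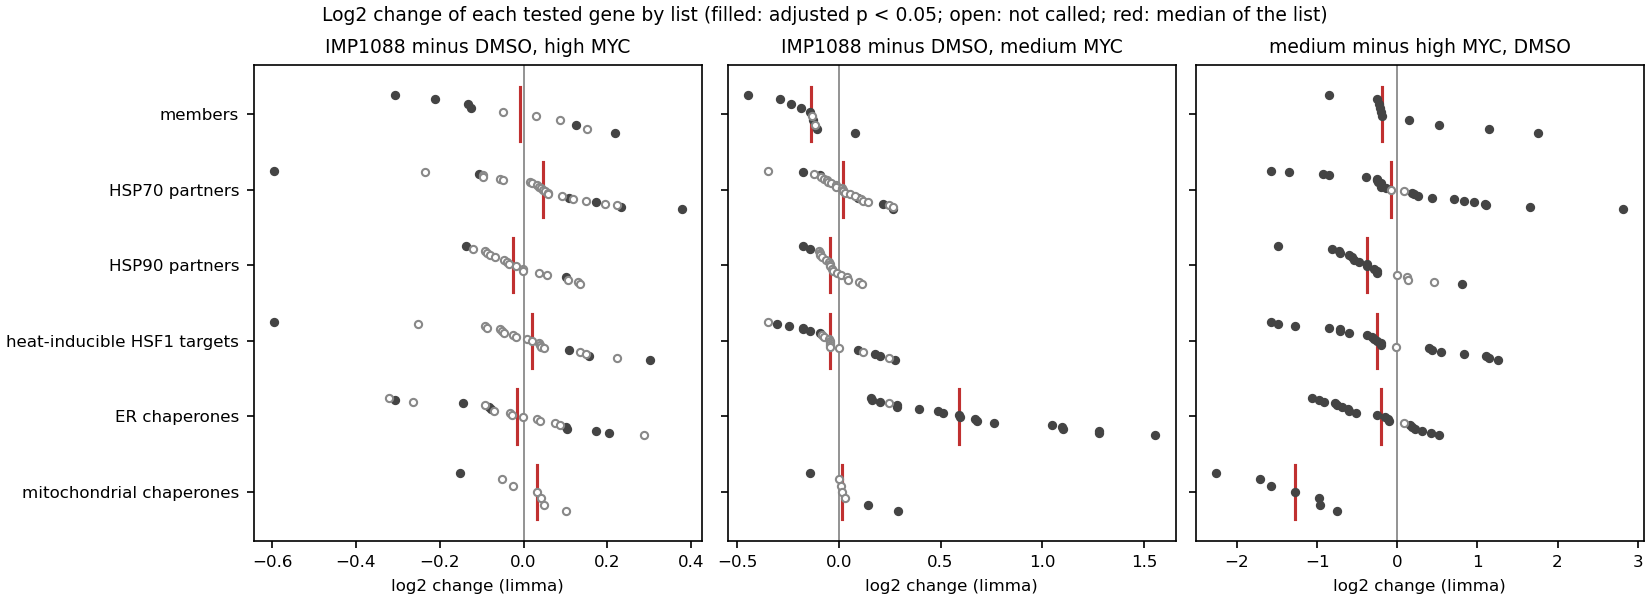
Log2 change of each tested gene (points; filled when called) by list, with the median of the list in red, for the inhibitor at high MYC, the inhibitor at medium MYC and medium against high MYC among controls; the x axes differ in range. The ER chaperones stand to the right of 0 in the middle panel (median 0.59), where the members' median is -0.14.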

How the data were processed

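RNA from P493-6 cells was extracted with a QIAGEN miRNeasy kit and sequenced on an Illumina HiSeq, per the labels' protocols. The submitters' processing notes name STAR 2.5.2a, RSEM 1.2.31, DESeq2 1.16.1 and GRCh38, without role or order. The authors deposited 1 table of normalized counts, a non-negative signal in which every value is a whole number of reads divided by the library's size factor (within 0.0001 of a read). The size factors ran from 0.858 to 1.33. Whether the counting used strand, and how reads of near-identical genes were divided, is not given in the sources used here. An estimating counter can split reads of HSPA1A and HSPA1B by model rather than by sequence.

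Symbols came from a table of gene names (56948 of 58051 identifiers matched), and positions and exon lengths came from GENCODE 29 on GRCh38. limma 3.58.1 in R 4.3.3 was fitted to log2(value + 1) for the 13765 genes that averaged 10 or more, with all 16 libraries, 4 group means and a mean trend. The members and lists were chosen with earlier results of these data known. Values are given for every member, for named counterparts in the ER and mitochondria, for MYC, and for up to 3 called genes of smallest p per list and direction. Of NMT1 and NMT2, which the same rule includes, neither was called with the inhibitor at either MYC level (limma adjusted p 0.321 and 0.743 at high, 0.247 and 0.278 at medium MYC).

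On simulated counts with 200 of 13765 genes changed at high MYC, limma found 75% of log2 changes of 0.5 and 94% of those of 1, and also called 8 genes that had not been changed. As differences in response, 53% and 84% were found. The simulation gave all genes the same dispersion and held no smaller changes, while the members' largest change with the inhibitor was -0.45. Its rates therefore do not cover the members that were not called. Replicates of a group differed by more than counting error (chi-square per degree of freedom 1.71 to 10.8). Alternatives were equal library totals, quantile normalization, TMM factors, pseudocounts of 0.1 and 10, no filter or a filter at a mean of 100, no mean trend, only the groups compared, a replicate block, count tests on the whole reads with edgeR 4.0.16 and DESeq2 1.42.0, summed copies of HSPA1A and HSPA1B, and each library left out. A correction for GC content, with a value for 99.5% of tested genes, and the ratio tests were added after the data were seen.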

Additional observations from a re-analysis of the deposited data

Results flagged for a closer look

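Among 60 sets of 4 replicates examined for the 10 members, their 4 ER counterparts and the sum of HSPA1A and HSPA1B, 4 held a library far from the other 3 by Dixon's criterion, where chance flags about 1 set in 20. These were HSPA1A in high MYC control 4 (43.6 normalized counts), HSPH1 in high MYC control 3 (3365), HSPB1 in medium MYC control 3 (3567) and HYOU1 in high MYC inhibitor library 1 (1239).

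The response to the inhibitor differed between the MYC levels, as high minus medium MYC, for HSPA1B (0.35, limma adjusted p 0.0136), HSPH1 (0.21, adjusted p 0.00391) and DNAJB1 (0.26, adjusted p 0.04999), and for the sum of HSPA1A and HSPA1B (0.34, adjusted p 0.0109). It differed in the other direction for HSPA5 (-1.24, adjusted p 7.02e-15), HSP90B1 (-0.48, adjusted p 1.13e-07), HYOU1 (-0.66, adjusted p 2.20e-09) and DNAJB11 (-0.51, adjusted p 3.24e-05). The call of DNAJB1 is the closest of these to the threshold and was lost in most other fits. Without medium MYC control 3, the differences of HSPA1B and HSPH1 were 0.29 (adjusted p 0.0209) and 0.21 (adjusted p 0.00467), and that of DNAJB1 was 0.22 (adjusted p 0.0854).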

How the results depend on the processing

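The number of members called was 4 to 7 at high MYC, 6 to 8 at medium MYC, 2 to 3 for the difference in response and 8 to 10 among controls over all alternatives, with the lowest count at high MYC (4, against 6) when the mean trend was left out or a library was. Numbers of called genes stayed within 1.5 times those reported. Quantile normalization moved the split of called genes at high MYC from 1442 higher and 2247 lower to 1727 and 1770. It also turned HSPA8 and HSP90AA1 among controls to 0.0314 and 0.0266, and the difference in response of HSP90AA1 to -0.00434. Other values near 0 changed sign. TRAP1 at high MYC went to 0.0113 with quantile normalization and 0.0282 with the GC correction, and HSPD1 at medium MYC to -0.0187 with the GC correction. On leaving out 1 library, log2 changes ran from -0.00430 to 0.0621 for DNAJB1 at high MYC, from -0.00462 to 0.0437 for the difference in response of HSP90AA1, and from -0.0207 to 0.0838 for the sum of HSPA1A and HSPA1B among controls. At medium MYC they ran from -0.0180 to 0.0733 for TRAP1, from -0.0156 to 0.0354 for DNAJA3 and from -0.0263 to 0.0190 for HSPD1. The cause of these changes was not tested.

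Over all alternatives, called genes at high MYC, at medium MYC and for the difference numbered 4 to 7, 2 to 5 and 0 to 2 among HSP70 partners, 0 to 3, 2 to 4 and 1 to 4 among HSP90 partners, 3 to 6, 5 to 10 and 0 to 3 among heat-inducible targets, and 0 to 2, 1 to 3 and 0 to 1 in the HSF family. Replicate numbers did not pair the libraries: same-numbered libraries had mean correlations of -0.07, -0.02 and 0.02 in their deviations from the group means. With a replicate block 3496, 3442, 1026 and 10419 genes were called at high MYC, at medium MYC, for the difference and among controls, with 6, 8, 3 and 10 members. At high MYC that fit called HSPH1 (adjusted p 0.0464) and not HSF1 (adjusted p 0.0775). HSPA1A had the fewest counts of the members, 44 to 58 normalized counts at high MYC.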

Other observations

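Several members had their highest value of a group in the same library. In medium MYC control 3, 7 of 10 members (HSPA8, HSPA1A, HSPA1B, HSP90AB1, DNAJB1, HSPB1 and HSF1) were at their highest of the 4 controls, where 35.8% of all tested genes were, and in high MYC inhibitor library 3 it was 6 of 10, where 26.4% of all genes were. Without medium MYC control 3, the falls with the inhibitor at medium MYC were -0.27 for HSPA8, -0.19 for DNAJB1 and -0.16 for HSF1, each still called (limma adjusted p 7.28e-08, 0.0190 and 0.0245). There HSPA1A changed from -0.12 to -0.03 and HSPA1B from -0.13 to -0.07, HSPB1 from -0.45 to -0.34 and HSP90AB1 from 0.08 to 0.09, of which the last pair stayed called.

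The genes whose level followed a member most closely over the 16 libraries were taken as a description among the 10902 genes averaging 50 or more. For HSPA8 these were the glycolytic enzyme ALDOA (Pearson r 0.984), PDLIM1 (0.983) and the fatty acid desaturase FADS1 (0.976). For HSP90AA1 they were the kinase GRK5 (0.979), PLEKHA2 (0.972) and MTMR12 (0.966). For DNAJB1 they were CLPTM1 (0.966), RNF216 (0.959) and ERC1 (0.953), and for HSF1 the histone methyltransferase KMT2D (0.971), SLC12A7 (0.961) and EFHD2 (0.956). The libraries fall into 4 groups, so these values reflect mostly the group means, and no p is given.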
